A study of Mus musculus with 20 samples.

Results

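The 44 genes described here drive, carry out or restrain the cell cycle, and they were followed in mural granulosa cells (GCs), which form the inner layer of the follicle wall and nurse the oocyte. They were chosen by name as known cell cycle genes and matched by symbol to 44 of the 55487 gene identifiers of the count tables. By role they were 11 genes of DNA replication, 20 genes of mitosis, 8 cyclins and kinases of the G1 phase, 3 inhibitors of cyclin-dependent kinases (CDKs) and 2 E2F transcription factors.

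The GCs came from 20 female mice, 5 in each of 4 groups: ctrl in estrus, FL1 in estrus, ctrl in diestrus and FL1 in diestrus. FL1 is a Dummerstorf line bred over many generations for large litters, and ctrl is the unselected line from the same founder population, so that with 1 line of each kind selection and other differences between the lines cannot be told apart. The mice were 77 ± 5 days old, no group received a treatment, and the stage was read from vaginal smears. For each mouse the cells of 7 to 10 of the largest follicles formed 1 sample, which was sequenced with the QuantSeq 3′ protocol, a method that counts 1 tag per transcript end, so that levels of different genes can be compared without a correction for length. Levels are given in CPM, the count of a gene divided by the reads on genes of the sample (after TMM scaling over all 20 samples) and multiplied by the sixth power of 10. Between 5446576 and 8257041 reads per sample fell on genes, and all 44 genes passed the filter on low counts in every comparison. The 10 GC marker genes, among them Fshr, Foxl2 and Cyp19a1, were detected in every group. The labels do not say whether any of the mice were littermates.

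Cells enter the cycle when D-type cyclins with Cdk4 or Cdk6, and then E-type cyclins with Cdk2, release E2F factors from the retinoblastoma protein. E2F factors switch on the genes of the S phase, in which the MCM helicase opens the DNA and enzymes of nucleotide synthesis supply the building blocks. Genes of mitosis follow later and are controlled largely through CCAAT boxes and the cell cycle homology region (CHR). In the follicle, growing GCs divide rapidly under FSH, with cyclin D2 as their main D-type cyclin, and GCs leave the cycle when they luteinize after the LH surge.

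The promoters of some of the genes at the centre of the results carried these elements. The windows searched ran from 250 bases before to 50 bases after the gene start in RefSeq (GRCm38.p6), and 35 of the 44 genes matched with 38 windows. The stretches below run 5′ to 3′ on the strand of the gene. Capitals mark CCAAT boxes (CCAAT, or ATTGG on the other strand), CHR elements (TTTGAA) and E2F sites (TTGGCGC or TTCCCGC, or their reverse complements). Mcm5 and Mcm7 were the 2 genes called by edgeR, the tool of the main test, and Ccnd3, Rrm2 and Cdk1 had the next lowest p-values among the genes with an element. Tk1 had a lower p-value than Ccnd3, Rrm2 and Cdk1 but held no element in its window, and Tyms held none either. Ccnd3 and Rrm2 held only a CCAAT box, and another window of Ccnd3 held no element.
Mcm5, chr8:75109337-75109499, plus strand: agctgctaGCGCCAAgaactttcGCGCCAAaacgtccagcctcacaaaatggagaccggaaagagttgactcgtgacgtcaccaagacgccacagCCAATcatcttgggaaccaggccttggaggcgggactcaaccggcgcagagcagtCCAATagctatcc
Mcm7, chr5:138171897-138172056, minus strand: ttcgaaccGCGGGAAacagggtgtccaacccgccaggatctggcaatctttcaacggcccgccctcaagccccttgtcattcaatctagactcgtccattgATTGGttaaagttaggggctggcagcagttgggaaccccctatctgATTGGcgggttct
Cdk1, chr10:69352914-69353128, minus strand: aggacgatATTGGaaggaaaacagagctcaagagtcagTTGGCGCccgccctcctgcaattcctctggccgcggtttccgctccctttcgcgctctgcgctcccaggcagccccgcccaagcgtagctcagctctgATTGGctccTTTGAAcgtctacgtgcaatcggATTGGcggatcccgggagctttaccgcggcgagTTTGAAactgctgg
Ccnd3, chr17:47593351-47593371, plus strand: ccagcggaCCAATggggctgc
Rrm2, chr12:24708196-24708216, plus strand: agcggcgtCCAATgggaggcg
The 2 replication genes Mcm5 and Mcm7 held E2F sites together with CCAAT boxes and no CHR element in these stretches. The mitotic kinase gene Cdk1 held CHR elements besides CCAAT boxes and an E2F site. The windows of both roles also differed in the share that held each element. CHR and CCAAT elements occurred together in 75.0% of 16 windows of mitosis genes and in 9.09% of 11 windows of replication genes, against 6.95% of all 32851 promoter windows of this length. An E2F site occurred in 54.5% of the replication windows and 18.8% of the mitosis windows, against 6.81% of all windows. A CCAAT box was found in 81.8% and 93.8% of them, against 37.4% of all. The letters of the E2F site TTGGCGC can overlap those of a reversed CCAAT box, and a match of letters is a description and not a bound site.

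The level of these genes was highest in ctrl mice in estrus. The highest of the 4 group means lay in that group for 33 of the 44 (75%), compared with 24.9% over the 14938 genes that entered the test. The lowest lay in ctrl mice in diestrus for 25 genes (56.8%), against 26.1% of all genes. All 11 replication genes had their highest mean in ctrl estrus, and 10 of them had their lowest mean in ctrl diestrus. Of the mitosis genes 14 of 20 had their highest mean in ctrl estrus, whereas the lowest mean lay in FL1 estrus for 8, ctrl diestrus for 7 and FL1 diestrus for 5.

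The mean log2 CPM over the 44 genes was 6.60 ± 0.19 (SD, n = 5) in ctrl estrus, 6.32 ± 0.26 in FL1 estrus, 6.15 ± 0.20 in ctrl diestrus and 6.35 ± 0.16 in FL1 diestrus. In single mice it ran from 6.39 to 6.83 in ctrl estrus and from 5.93 to 6.39 in ctrl diestrus, so that these groups did not overlap, whereas the FL1 groups overlapped each other and both ctrl groups. Among the means over replication, mitosis and G1 genes, only that of the replication genes set all ctrl mice in estrus apart from all other mice. Their mean was 7.14 ± 0.11 in ctrl estrus, with a range of 6.97 to 7.26. It was 6.55 ± 0.26 in FL1 estrus, 6.36 ± 0.33 in ctrl diestrus and 6.62 ± 0.24 in FL1 diestrus, and no mouse of these groups reached the range of ctrl estrus. The mean over the mitosis genes was 7.10 ± 0.26, 6.70 ± 0.36, 6.75 ± 0.25 and 6.81 ± 0.36 in the same order of groups, and each group overlapped the others. Over all genes tested the group means lay between 3.72 and 3.83. These means over a list are descriptions without a test, and in a bulk sample fewer dividing cells and less RNA per cell cannot be told apart.

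**Figure D1:**
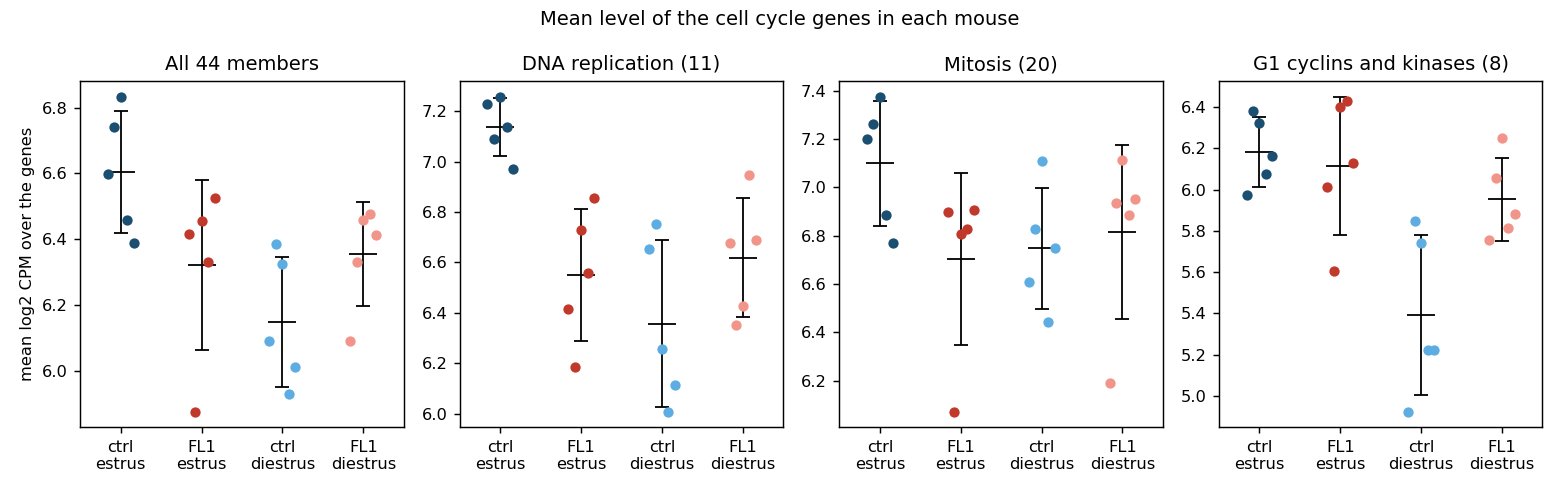
Mean log2 CPM over all 44 genes and over 3 of their roles, 1 point per mouse, with the group mean (dash) and SD (bar) of 5 mice. For the 11 replication genes all 5 ctrl estrus mice, at 6.97 to 7.26, lie above every other mouse.

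**Figure D2:**
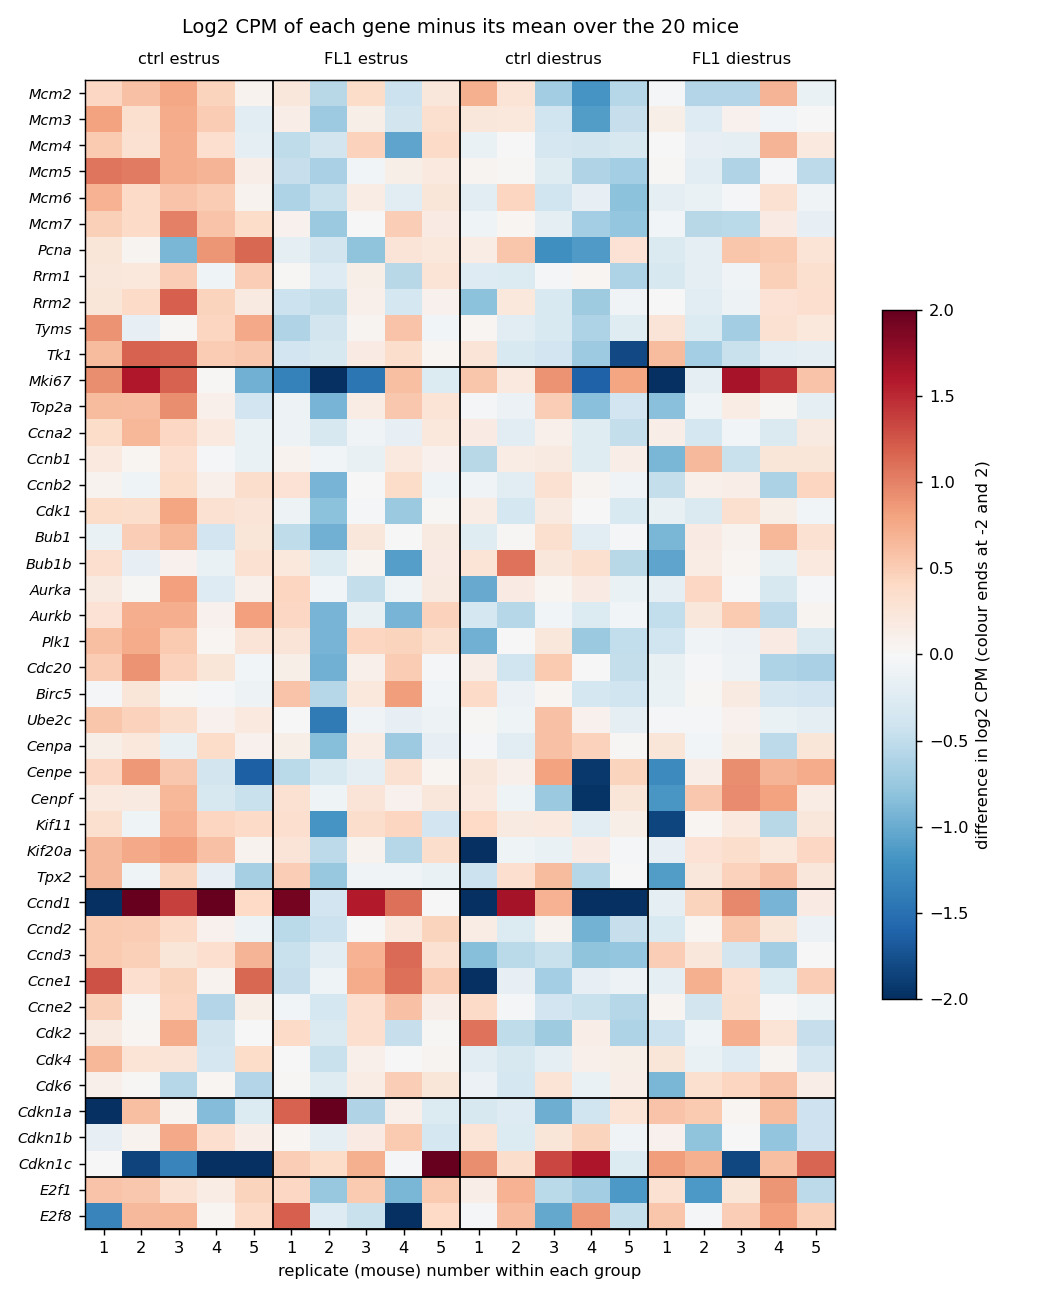
Log2 CPM of each of the 44 genes (rows, by role) in each mouse (columns, by group) minus the mean of that gene over the 20 mice, with colour from -2 to 2. The 5 columns of ctrl estrus are mostly red in the replication rows, and replicate 2 of FL1 estrus is blue in most mitosis rows.

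Of the comparisons 2 address the line, FL1 against ctrl in estrus and in diestrus, and 2 the stage, diestrus against estrus in ctrl and in FL1 mice. Each was tested for every gene with the quasi-likelihood F test of edgeR on 10 samples, and a gene was called at an adjusted p of 0.05 or less (Benjamini-Hochberg, over all genes tested). The ctrl mice in estrus take part in the line comparison in estrus and in the stage comparison in ctrl mice, so that the values of these 2 comparisons are not independent. Of the 44 genes 2 were called lower in diestrus than in estrus in ctrl mice, where 0.576% of 12850 genes tested were called lower. None was called in the other 3 comparisons, in which 0.769% of all genes (FL1 against ctrl in estrus), 0.248% (in diestrus) and 0.221% (diestrus against estrus in FL1) were called. DESeq2 called 6 genes lower between the stages of ctrl mice (Mcm5, Mcm7, Tk1, Aurkb, Plk1 and Ccnd3), where it called 3.42% of all genes in either direction, 3 lower between the lines in estrus (Mcm5, Tk1 and Cdk1), where it called 2.7%, and none in the other 2 comparisons. In ctrl mice 40 of the 44 genes had a log2 fold change below 0 in diestrus, against 49.6% of all genes, and their median was -0.44, against 0.004 over all genes. At an unadjusted p under 0.05, 17 of the 44 genes were lower in diestrus and 1 was higher, whereas 5.85% and 5.91% of all genes were. In estrus 38 of the 44 genes had a log2 fold change below 0 in FL1 against ctrl mice, against 49.5% of all genes, with a median of -0.34. There 13 genes were lower and 2 higher at an unadjusted p under 0.05, against 5.22% and 5.47% of all genes.

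In the remaining comparisons the genes lay closer to 0. In diestrus 34 of the 44 genes had a log2 fold change above 0 in FL1 against ctrl mice, against 51.3% of all genes, with a median of 0.18, and 1 had an unadjusted p under 0.05 (5.56% of all genes). Between the stages of FL1 mice 25 genes lay above 0 (51.1% of all genes) and 19 below, with a median of 0.02, and again 1 had an unadjusted p under 0.05 (9.48% of all genes). The difference between the lines was tested against the stage in 1 fit of all 20 samples (the interaction), in which a value above 0 means that the log2 fold change of FL1 against ctrl was higher in diestrus than in estrus. None of the 44 genes passed this test in edgeR or DESeq2, nor did any of the 14938 genes in edgeR (0%). The interaction was above 0 for 37 of the 44 genes with a median of 0.53, whereas 50.3% of all genes lay above 0, and 12 genes above and 1 below 0 had an unadjusted p under 0.05, against 2.5% and 2.26% of all genes.

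**Figure D3:**
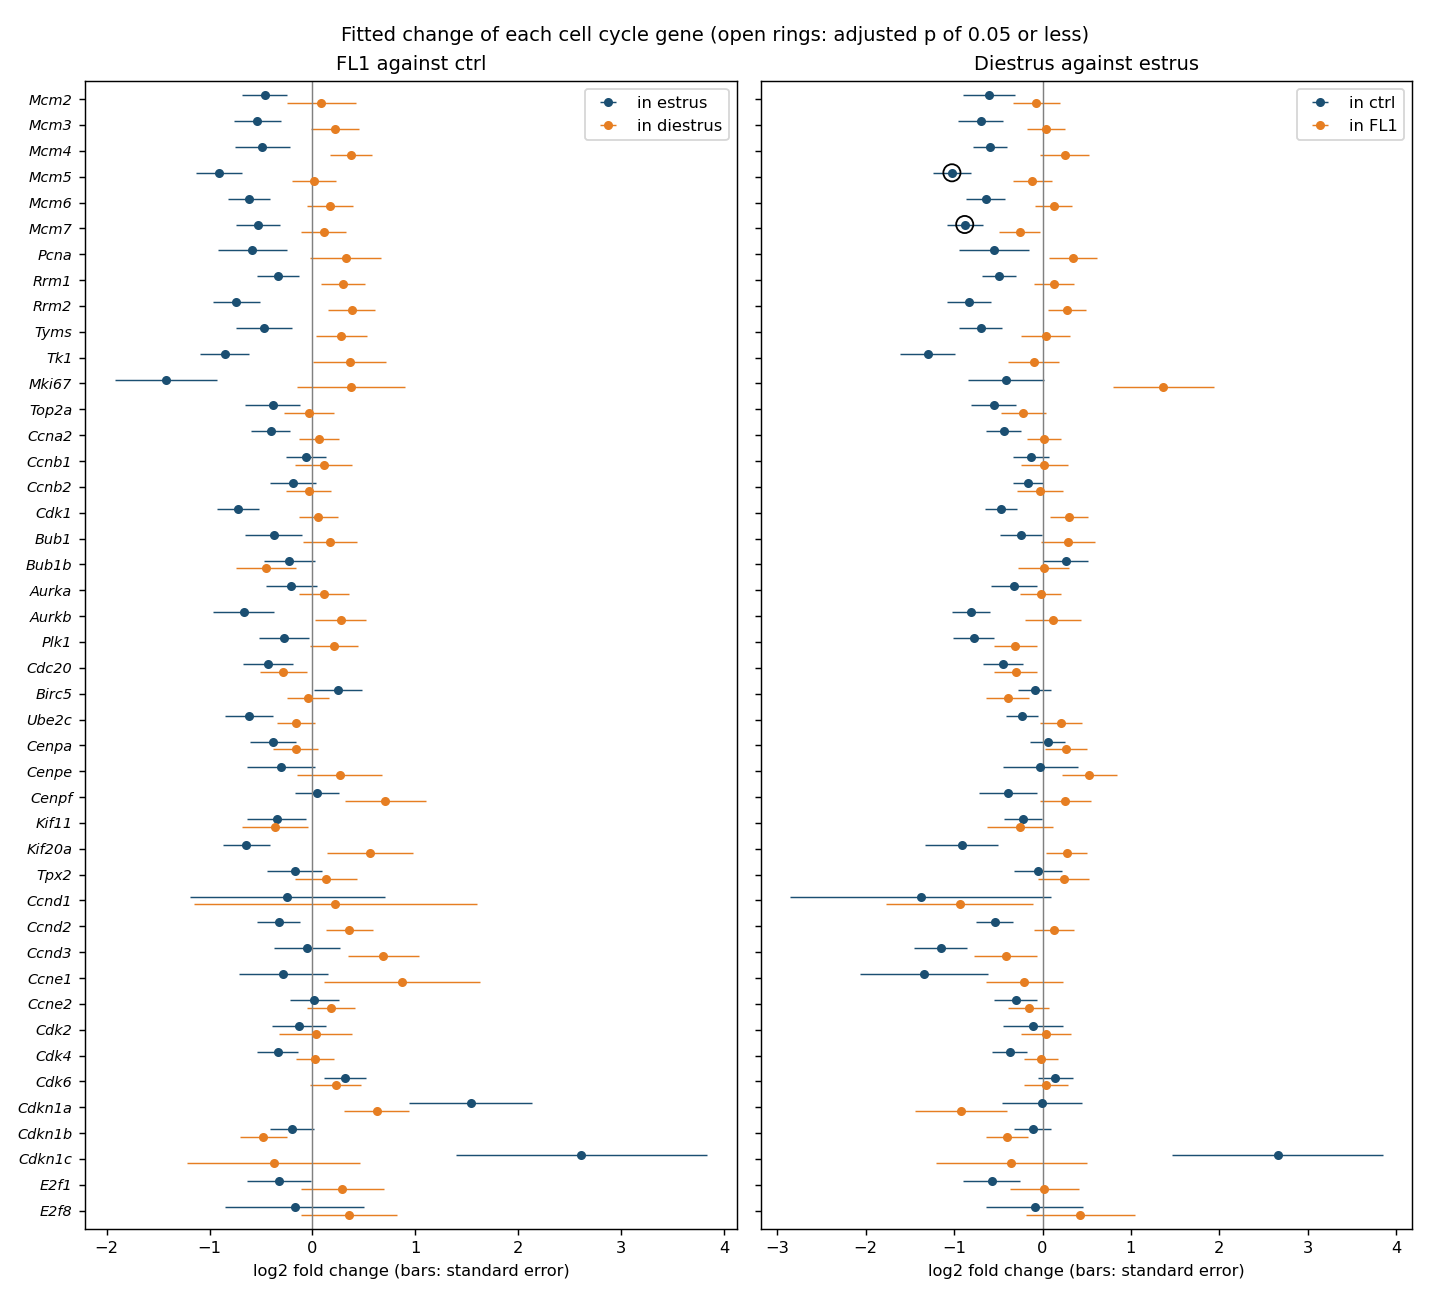
Fitted log2 fold change of each gene with its standard error, for FL1 against ctrl in each stage (left) and diestrus against estrus in each line (right). The blue points of both panels, which share the ctrl estrus mice, lie mostly left of 0, the orange points lie mostly right of 0 in the left panel (34 of 44) and on both sides of it in the right panel, and the 2 ringed points are Mcm5 and Mcm7.

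Mcm2 to Mcm7 encode the 6 subunits of the helicase that unwinds DNA ahead of the replication fork. Mcm5 reached 259, 253, 205, 198 and 135 CPM in the 5 ctrl mice in estrus and 128, 126, 104.6, 80.9 and 77.1 CPM in ctrl mice in diestrus. In FL1 mice it was 89.1, 78.2, 119, 134 and 142 CPM in estrus and 126, 105.7, 81.6, 119 and 85.5 CPM in diestrus. Every ctrl mouse in estrus lay above every ctrl mouse in diestrus, whereas the lowest ctrl mouse in estrus fell within the range of FL1 mice in estrus. Mcm5 was 2.04-fold lower in diestrus than in estrus in ctrl mice (log2 fold change -1.03 ± 0.22 SE, edgeR adjusted p = 0.0265). FL1 mice in estrus had a 1.88-fold lower value than ctrl mice, which did not pass (-0.91 ± 0.22, adjusted p = 0.0663) but was called when ctrl estrus replicate 5 was left out (-1.02, adjusted p = 0.0297). The log2 fold change was 0.02 ± 0.21 between the lines in diestrus and -0.11 ± 0.22 between the stages in FL1 mice. Its interaction was 0.92 ± 0.31 with an unadjusted p of 0.00618 and an adjusted p of 0.933.

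Mcm7 was the other gene called. It was measured at 331, 312, 481, 352 and 308 CPM in ctrl estrus and 225, 246, 210.1, 149 and 139 CPM in ctrl diestrus. The FL1 mice had 254, 143, 241, 335 and 268 CPM in estrus and 229.6, 163, 164, 267 and 212 CPM in diestrus. Again all ctrl mice in estrus exceeded all ctrl mice in diestrus, and the FL1 mice lay between and across both. The fall from estrus to diestrus in ctrl mice was 1.84-fold (log2 fold change -0.88 ± 0.20, edgeR adjusted p = 0.0417), and the value between the stages of FL1 mice was -0.26 ± 0.23 (adjusted p = 0.821). With the replicate number as a block in the edgeR fit Mcm7 was not called in ctrl mice (adjusted p = 0.0555). The gene of Mcm7 (chromosome 5) holds the microRNAs Mir25, Mir93 and Mir106b on its own strand and overlaps Cops6 and Ap4m1 on the other strand, and whether the counts used the strand is not given in the sources used here. The same limit holds for other members that overlap a gene on the opposite strand, among them Tk1 (Afmid), Ccnd3 (Bysl), Cdk4 (Tspan31), Cdc20 (Elovl1), Ube2c (Tnnc2), Ccna2 (Exosc9) and Kif20a (Cdc23). Both calls depended on single mice. When each of the 10 mice was left out in turn, Mcm5 and Mcm7 passed only in the 3 tests without ctrl estrus replicate 5, ctrl diestrus replicate 1 or ctrl diestrus replicate 2 and failed without any one of the other 7, with adjusted p from 0.0137 to 0.0843 for Mcm5 and from 0.037 to 0.125 for Mcm7, while the log2 fold change stayed between -1.15 and -0.93 for Mcm5 and between -0.97 and -0.75 for Mcm7.

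The other subunits also had their highest mean in ctrl estrus and their lowest in ctrl diestrus, without passing the test. Mcm2 was 189, 213, 242, 193 and 148 CPM in ctrl estrus, 166, 96.3, 184, 105.3 and 166 CPM in FL1 estrus, 232, 171, 87.8, 62.3 and 95.7 CPM in ctrl diestrus and 138, 94.8, 94.1, 226 and 129 CPM in FL1 diestrus. The ctrl mice in diestrus spread most, from the lowest to nearly the highest value of all mice. For Mcm3, Mcm4 and Mcm6 the group mean was 324, 153 and 236 CPM in ctrl estrus and 199.7, 101.4 and 151 CPM in ctrl diestrus, with unadjusted p of 0.0137, 0.00609 and 0.0093 and adjusted p of 0.239, 0.16 and 0.196.

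Tk1 (thymidine kinase), Tyms (thymidylate synthase), Rrm1 and Rrm2 (subunits of ribonucleotide reductase) supply deoxynucleotides. Tk1 was 64.8, 95.7, 94.5, 59.5 and 60.8 CPM in ctrl estrus, 32.1, 33.6, 47.0, 53.4 and 43.0 CPM in FL1 estrus, 49.9, 33.7, 32.0, 25.2 and 11.7 CPM in ctrl diestrus and 65.1, 26.04, 30.6, 36.1 and 36.6 CPM in FL1 diestrus. The ctrl mice in estrus overlapped neither the FL1 mice in estrus nor the ctrl mice in diestrus. Tk1 missed the threshold narrowly between the stages of ctrl mice (-1.30 ± 0.32, 2.46-fold lower in diestrus, adjusted p = 0.0511) and further between the lines in estrus (-0.85 ± 0.24, adjusted p = 0.115). Rrm2 was 89.6, 98.2, 173, 102.6 and 85.8 CPM in ctrl estrus and 56.1, 53.9, 80.6, 59.1 and 80.4 CPM in FL1 estrus, without overlap. In diestrus it was 42.4, 87.6, 60.7, 46.1 and 71.9 CPM in ctrl and 74.7, 65.2, 70.5, 92.4 and 95.7 CPM in FL1 mice, with the FL1 mice mostly above the ctrl mice. Rrm2 had the lowest unadjusted interaction p of the 44 genes in edgeR (1.11 ± 0.33, unadjusted p = 0.00222, adjusted p = 0.933), from a log2 fold change of FL1 against ctrl of -0.74 ± 0.23 in estrus and 0.38 ± 0.23 in diestrus.

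Tyms was 92.3, 44.2, 50.5, 66.8 and 83.7 CPM in ctrl estrus and 32.5, 38.5, 51.7, 73.5 and 48.0 CPM in FL1 estrus. It was 50.8, 42.3, 40.3, 32.3 and 42.1 CPM in ctrl diestrus and 59.6, 41.2, 30.6, 61.6 and 57.4 CPM in FL1 diestrus. The groups overlapped, and the largest difference was that between the stages of ctrl mice (-0.70 ± 0.25, adjusted p = 0.212). Pcna, the sliding clamp of the DNA polymerases, was 49.0, 42.8, 21.7, 76.2 and 91.5 CPM in ctrl estrus, 35.8, 32.0, 23.6, 49.4 and 47.8 CPM in FL1 estrus, 45.6, 60.5, 17.5, 18.7 and 50.5 CPM in ctrl diestrus and 33.5, 36.3, 60.5, 59.3 and 49.8 CPM in FL1 diestrus. It differed more among mice of 1 group than between groups, with a spread within groups of 40.3% of its mean. Of the 11 replication genes Rrm1 spread least within groups, at 20.1%. Of the 11 genes 9 had an unadjusted p under 0.05 between the stages of ctrl mice and 7 between the lines in estrus, and all of these were lower than in ctrl estrus. Over all genes 5.85% and 5.22% were lower at this threshold.

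**Figure D4:**
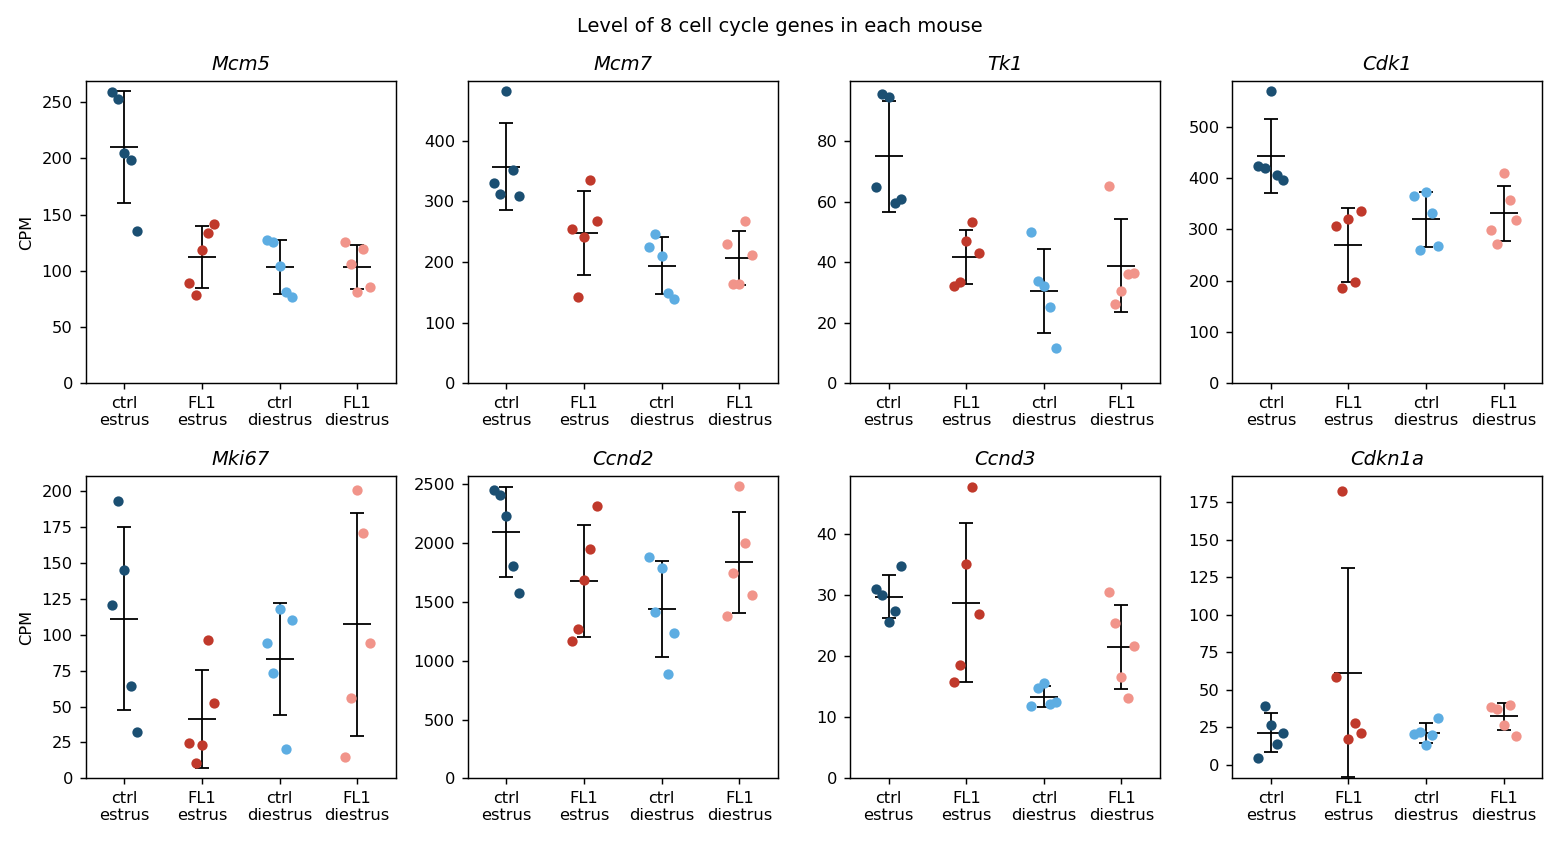
CPM of 8 genes in each mouse (points) with the group mean (dash) and SD (bar) of 5 mice, on linear axes that include 0. For Mcm5, Mcm7 and Tk1 the ctrl estrus mice lie above all ctrl diestrus mice, Mki67 spreads widely in every group, and 1 FL1 estrus mouse has 183 CPM of Cdkn1a.

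None of the 20 mitosis genes was called by edgeR in any comparison, whereas DESeq2 called Cdk1 between the lines in estrus and Aurkb and Plk1 between the stages of ctrl mice. Between the lines in estrus 18 of them had a log2 fold change below 0 (median -0.36), and 6 were lower at an unadjusted p under 0.05. Between the stages of ctrl mice the numbers were again 18 and 6, with a median of -0.28. Cdk1, the kinase that drives entry into mitosis, was 423, 419, 569.9, 406 and 396 CPM in ctrl estrus and 307, 186, 320.5, 198 and 335 CPM in FL1 estrus. It was 365, 259, 373, 332 and 268 CPM in ctrl diestrus and 298, 271, 410.2, 358 and 318 CPM in FL1 diestrus. The ctrl mice in estrus overlapped neither FL1 mice in estrus nor ctrl mice in diestrus. The log2 fold change of Cdk1 in FL1 against ctrl mice was -0.72 ± 0.20 in estrus (1.65-fold lower, adjusted p = 0.122) and 0.06 ± 0.19 in diestrus, with an interaction of 0.77 ± 0.28 (unadjusted p = 0.00909, adjusted p = 0.956). Ccnb1, the cyclin partner of Cdk1, was measured at 75.0, 67.8, 82.8, 64.7 and 59.8 CPM in ctrl estrus and 68.8, 63.3, 59.2, 75.5 and 70.0 CPM in FL1 estrus. It was 44.5, 72.6, 74.5, 55.7 and 72.1 CPM in ctrl diestrus and 34.8, 102.8, 48.3, 77.5 and 78.1 CPM in FL1 diestrus. The group means of Ccnb1 lay close together, between 63.9 and 70.0 CPM, while its spread within groups was 23.6% of the mean, against 19.5% for Cdk1, and its log2 fold change in estrus was -0.06 ± 0.19.

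Mki67 encodes the Ki-67 protein of dividing cells, the usual marker of proliferation. It was 121, 193, 145, 64.4 and 32.6 CPM in ctrl estrus and 24.8, 10.9, 23.1, 96.2 and 52.4 CPM in FL1 estrus. It was 93.9, 73.0, 118, 20.5 and 110.1 CPM in ctrl diestrus and 14.8, 55.9, 201, 171 and 94.3 CPM in FL1 diestrus. The mice of each group spread widely, with a spread within groups of 66.1% of the mean, and all groups overlapped. Neither the log2 fold change of -1.43 ± 0.49 between the lines in estrus (adjusted p = 0.241) nor that of 1.37 ± 0.58 between the stages of FL1 mice (adjusted p = 0.445) passed in the main edgeR test. Without the filter on low counts edgeR called Mki67 in both comparisons (adjusted p = 0.00171 and 0.0135). Top2a, the topoisomerase that untangles chromosomes, was the second most abundant of the 44 genes. It was 1168, 1148, 1423, 804 and 575 CPM in ctrl estrus and 700.3, 394, 832, 1093 and 906 CPM in FL1 estrus. It was 737, 694, 1061, 419 and 574 CPM in ctrl diestrus and 422, 708, 833, 761 and 652 CPM in FL1 diestrus. All groups overlapped, and the log2 fold changes were -0.39 ± 0.26 between the lines in estrus and -0.55 ± 0.26 between the stages of ctrl mice (adjusted p = 0.416).

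Plk1 and the Aurora kinases Aurka and Aurkb guide the spindle and the separation of chromosomes. Plk1 was 205, 228, 195, 139 and 162 CPM in ctrl estrus, 162, 71.0, 184, 184 and 169 CPM in FL1 estrus, 69.7, 135, 159, 81.1 and 96.3 CPM in ctrl diestrus and 102.7, 129.7, 125, 153 and 111.3 CPM in FL1 diestrus. Between the stages of ctrl mice its log2 fold change was -0.78 ± 0.23 (adjusted p = 0.136), and in FL1 mice -0.31 ± 0.24. Aurka was 67.4, 60.3, 105.1, 49.6 and 63.4 CPM in ctrl estrus, 79.5, 56.9, 42.3, 55.8 and 66.9 CPM in FL1 estrus, 29.3, 66.0, 60.9, 66.4 and 54.0 CPM in ctrl diestrus and 52.5, 78.7, 59.6, 47.6 and 58.3 CPM in FL1 diestrus, so that all groups overlapped. Aurkb ranged from 54.6 to 90.8 CPM in ctrl estrus and from 34.6 to 49.5 CPM in ctrl diestrus, without overlap (-0.81 ± 0.22, adjusted p = 0.0867), and from 26.8 to 70.7 CPM in FL1 estrus. Ube2c, which helps to degrade cyclin B at the end of mitosis, ranged from 95.4 to 257 CPM in FL1 estrus against 271 to 378 CPM in ctrl estrus, again without overlap (-0.61 ± 0.23, adjusted p = 0.297). The spindle motor gene Kif20a had 6.80 to 88.7 CPM in ctrl diestrus, where 1 mouse had only 38 counts. The anaphase activator Cdc20, the cyclins Ccna2 and Ccnb2, the checkpoint kinases Bub1 and Bub1b, survivin (Birc5), the centromere genes Cenpa, Cenpe and Cenpf, the spindle motor Kif11 and its partner Tpx2 had group means between 40.3 CPM (Kif11, FL1 diestrus) and 299 CPM (Cdc20, ctrl estrus), and their lowest adjusted p in the 4 comparisons was 0.373 (Ccna2, diestrus against estrus in ctrl). Without overlap between the compared groups were 4 of the 44 genes in FL1 against ctrl mice in estrus (Rrm2, Tk1, Cdk1 and Ube2c, all lower), against 1.68% of all genes, and 7 between the stages of ctrl mice (Mcm5, Mcm7, Tk1, Cdk1, Aurkb, Ccnd3 and Ccne1, all lower in diestrus), against 1.87% of all genes.

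Ccnd2 was by far the most abundant of the 44 genes. It was 2451, 2408, 2229, 1810.1 and 1579 CPM in ctrl estrus and 1171, 1269, 1686, 1947 and 2318 CPM in FL1 estrus. It was 1884, 1412, 1788, 888 and 1234 CPM in ctrl diestrus and 1379, 1749, 2489, 2006 and 1562 CPM in FL1 diestrus. The groups overlapped, and the largest log2 fold change was that between the stages of ctrl mice (-0.54 ± 0.21, adjusted p = 0.287). Ccnd2 made up between 97.3% and 99.4% of the summed CPM of the 3 D-type cyclins in every mouse.

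Ccnd3, with much lower counts, is also used in other somatic cells. It was 31.0, 29.9, 25.5, 27.3 and 34.8 CPM in ctrl estrus and 11.8, 14.8, 15.7, 12.1 and 12.5 CPM in ctrl diestrus. The FL1 mice had 15.7, 18.6, 35.0, 47.6 and 26.8 CPM in estrus and 30.4, 25.4, 16.6, 13.2 and 21.7 CPM in diestrus. Each ctrl mouse in estrus had more than every ctrl mouse in diestrus, but the difference did not pass (-1.15 ± 0.30, 2.22-fold lower, adjusted p = 0.0732). The FL1 mice spread across both ctrl groups (-0.42 ± 0.36). Ccnd1 was barely detected, at 0, 11.9, 7.05, 11.6 and 3.45 CPM in ctrl estrus and 10.4, 1.88, 8.17, 5.77 and 2.56 CPM in FL1 estrus. It was 0, 8.72, 4.28, 0 and 0 CPM in ctrl diestrus, where 3 mice had no count, and 2.17, 3.54, 5.20, 1.19 and 2.88 CPM in FL1 diestrus. Its standard errors were correspondingly wide (-1.38 ± 1.47 between the stages of ctrl mice).

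Cdk4 was 306, 233, 231, 152 and 247 CPM in ctrl estrus and 191, 141, 206, 192 and 199 CPM in FL1 estrus. It was 165, 154, 171, 207 and 207 CPM in ctrl diestrus and 227, 174, 161, 200.1 and 153 CPM in FL1 diestrus, and all groups overlapped. Cdk6, the alternative partner of the D-type cyclins, had, with Cdkn1c, its lowest mean in ctrl estrus (229 ± 52.7 CPM, against 286 ± 52.8 in FL1 estrus, 253 ± 43.7 in ctrl diestrus and 294 ± 95.6 in FL1 diestrus), with no difference past the test. Cdk6 made up 49.5% ± 9.07 of the summed CPM of both kinases in ctrl estrus and 60.4% ± 3.02 in FL1 estrus. Cdk2 and its cyclins Ccne1 and Ccne2 had group means of 47.5 to 51.7, 6.54 to 16.6 and 61.9 to 77.9 CPM. Ccne1 did not overlap between the stages of ctrl mice (-1.34 ± 0.73, adjusted p = 0.532), with no count in 1 mouse in diestrus. The mean over the 8 G1 genes was 6.18 ± 0.17 in ctrl estrus and 5.39 ± 0.39 in ctrl diestrus on the log2 CPM scale. It was 6.12 ± 0.33 in FL1 estrus and 5.95 ± 0.20 in FL1 diestrus, so that in diestrus FL1 mice lay 0.56 ± 0.20 (SE) above ctrl mice, with overlap. In this comparison all 8 fitted log2 fold changes were above 0, with a median of 0.22, none had an unadjusted p under 0.05, and zeros of Ccnd1 and Ccne1 enter these means.

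The 3 CDK inhibitors differed widely in level. Cdkn1b (p27) prevailed, at 194, 228, 369, 273 and 237 CPM in ctrl estrus and 223, 189, 243, 311 and 169.8 CPM in FL1 estrus. It was 263, 179, 256, 297 and 207 CPM in ctrl diestrus and 231, 124, 216, 126 and 163 CPM in FL1 diestrus. FL1 mice in diestrus had the lowest mean, and the log2 fold change against ctrl mice was -0.48 ± 0.23 (unadjusted p = 0.0498, adjusted p = 0.897). Cdkn1a (p21), a target of p53, was 4.64, 39.2, 26.6, 14.0 and 21.2 CPM in ctrl estrus and 58.6, 183, 16.8, 27.5 and 21.2 CPM in FL1 estrus. It was 20.4, 21.5, 12.8, 19.5 and 30.9 CPM in ctrl diestrus and 38.2, 37.2, 26.3, 40.0 and 19.1 CPM in FL1 diestrus. One FL1 mouse in estrus stood far above all others, and the groups overlapped. The log2 fold change of Cdkn1a in FL1 against ctrl mice was 1.54 ± 0.60 in estrus (adjusted p = 0.311) and 0.62 ± 0.32 in diestrus (adjusted p = 0.927). Without this mouse the value in estrus was 0.55 (adjusted p = 0.869). Cdkn1c (p57) was near the limit of detection, at 2.46, 0.465, 0.809, 0.148 and 0 CPM in ctrl estrus and 3.61, 3.26, 4.24, 2.39 and 11.1 CPM in FL1 estrus. It was 5.01, 3.22, 6.69, 8.21 and 1.9997 CPM in ctrl diestrus and 4.66, 4.23, 0.488, 3.89 and 5.93 CPM in FL1 diestrus. It rested on 0 to 65 counts per mouse, and the log2 fold changes of 2.61 ± 1.22 in estrus and 2.66 ± 1.19 between the stages of ctrl mice had adjusted p of 0.454 and 0.383.

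E2f1, an activator of S phase genes, was 48.3, 47.3, 40.2, 36.2 and 44.4 CPM in ctrl estrus and 43.7, 19.1, 47.1, 17.2 and 46.8 CPM in FL1 estrus. It was 35.8, 53.0, 22.3, 19.997 and 14.5 CPM in ctrl diestrus and 40.4, 14.5, 38.7, 60.1 and 22.5 CPM in FL1 diestrus. Its ctrl mice in estrus lay close together, whereas the mice of the other groups spread from 14.5 to 60.1 CPM. E2f8, a repressor of the same genes, was 3.62, 15.2, 15.2, 9.80 and 12.6 CPM in ctrl estrus and 22.2, 7.90, 6.92, 0.563 and 12.6 CPM in FL1 estrus. It was 9.30, 14.8, 4.55, 17.7 and 6.80 CPM in ctrl diestrus and 14.1, 9.27, 13.5, 17.1 and 13.4 CPM in FL1 diestrus, with overlap of all groups. Neither passed a test, and the lowest adjusted p was 0.554 (E2f1, diestrus against estrus in ctrl).

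Other genes of the same pathways were counted in 3 lists of 40 genes of replication and S phase, 50 of mitosis and 40 of cell cycle control, of which 129 were tested. Of these 129 genes 98 had a log2 fold change below 0 in FL1 against ctrl mice in estrus (median -0.22), against 49.5% of all genes. Between the stages of ctrl mice all but 27 had one below 0 (median -0.27), against 49.6% of all genes. There 37 of the 40 replication genes and 44 of the 50 mitosis genes lay below 0, whereas the genes of control went both ways (21 below and 18 above 0). In estrus 24 of the genes of control lay below and 15 above 0. Of the 129 genes 1 was called between the lines in estrus, against 0.769% of all genes. Between the stages of ctrl mice 1 was called higher and 1 lower, against 1.36% of all genes in either direction. These counts were near the shares over all genes. In estrus Rpa3, a subunit of the protein that coats single-stranded DNA, was called lower in FL1 mice, from 44.1 ± 21.5 CPM in ctrl to 11.4 ± 1.15 CPM (log2 fold change -1.96 ± 0.33, edgeR adjusted p = 0.0071). Fen1, the flap endonuclease of lagging strand synthesis, was called lower in diestrus in ctrl mice, from 93.1 ± 9.19 to 45.8 ± 9.03 CPM (-1.02 ± 0.20, adjusted p = 0.0185). Foxo1, a transcription factor that restrains the cycle in GCs, was called higher in diestrus in ctrl mice, from 1078 ± 96.9 to 2121 ± 470.5 CPM (0.98 ± 0.18, adjusted p = 0.0143). Foxo1 was also called, as the only 1 of the 129 genes, in the stage effect over both lines (0.97 ± 0.15, adjusted p = 0.000338), where 3.17% of all genes were called. In the line effect over both stages, where 1.21% of all genes were called, Rpa3 was called lower (-1.20 ± 0.30, adjusted p = 0.0373) and Ccng1, a p53 target, higher in FL1 mice (0.73 ± 0.18, adjusted p = 0.0376). None of the 44 genes was called in either of these 2 effects in edgeR (1.21% of all genes in the line effect and 3.17% in the stage effect). At an unadjusted p under 0.05 there were 6 of them in each effect (11% and 14.6% of all genes), DESeq2 called 0 in the line effect (2.68% of all genes) and 4 in the stage effect (Mcm5, Mcm7, Plk1 and Ccnd3, against 5.5% of all genes), and the lowest edgeR adjusted p among them was 0.0574 (Mcm7, stage effect).

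Single mice moved many of these genes at once. FL1 estrus replicate 2 had the lowest value of all 20 mice for 10 of the 44 genes, 9 of them mitosis genes, whereas it had the lowest value for 3.61% of all genes. It was also the mouse with 183 CPM of Cdkn1a. Ctrl estrus replicate 3 was highest for 10 of them, compared with 4% of all genes, and ctrl diestrus replicate 5 had the lowest value for 5 of the 11 replication genes and 6 of all 44, compared with 2.36% over all genes. Without FL1 estrus replicate 2 the difference of FL1 and ctrl in estrus in the mean over the 44 genes went from -0.28 to -0.17 on the log2 scale, that over the replication genes from -0.59 to -0.50 and that over the mitosis genes from -0.40 to -0.24. The number of genes lower at an unadjusted p under 0.05 went from 13 to 8.

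Markers of luteinizing or luteal cells differed with the line. The summed CPM of 7 such markers ranged from 4165 to 8608 in FL1 estrus and from 326 to 1688 in ctrl estrus, without overlap, and FL1 estrus replicate 2 had the highest sum. All 7 had a log2 fold change above 0 in FL1 against ctrl mice in estrus, and 3 were called. The sums were 1008 to 4620 in FL1 diestrus and 432 to 1065 in ctrl diestrus. The part of these cells in the lower values of the cell cycle genes in FL1 mice in estrus was not tested. Between the stages of ctrl mice, where Mcm5 and Mcm7 were called, the luteal sums overlapped. Of the 7 markers 2 were lower and 1 was higher in diestrus at an unadjusted p under 0.05, against 5.85% and 5.91% of all genes, and none was called. Their part in the lower Mcm5 and Mcm7 was not tested. Markers of macrophages and leukocytes summed to 47.4 to 118 CPM in FL1 estrus, 21.02 to 62.7 CPM in ctrl estrus, 7.69 to 20.7 CPM in ctrl diestrus and 12.3 to 87.8 CPM in FL1 diestrus, without overlap between the stages of ctrl mice, and their part in the lower Mcm5 and Mcm7 of ctrl diestrus was not tested. Markers of theca and interstitial cells summed to 426 to 968 CPM in ctrl estrus, 582 to 1139.7 CPM in FL1 estrus, 104.6 to 636 CPM in ctrl diestrus and 101.1 to 839.9 CPM in FL1 diestrus. All 5 of these markers that were tested between the stages of ctrl mice had an unadjusted p under 0.05, 4 of them lower in diestrus (1 called by edgeR) and Cyp17a1 higher (called), with a median log2 fold change of -1.35. In the same comparison 2 of the 10 GC markers were called higher in diestrus. The part of these shifts in the lower Mcm5 and Mcm7 was not tested. Oocyte markers were present in every group and overlapped between groups, with sums from 53.0 to 597 CPM. The markers of endothelium (16.1 to 102.7 CPM), red blood cells (47.7 to 1614 CPM), surface epithelium (3.91 to 77.5 CPM) and cumulus cells (0 to 13.5 CPM) overlapped between ctrl and FL1 mice of each stage and between the stages of ctrl mice. In estrus the overlap rested on FL1 estrus replicate 2 alone for endothelium (median 80.1 CPM in FL1 and 41.9 CPM in ctrl mice) and surface epithelium (42.6 and 18.1 CPM). The same held for macrophages and leukocytes (106.6 and 38.0 CPM). The part of these differences in the lower values of the cell cycle genes in FL1 mice in estrus was not tested.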

How the data were processed

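The authors deposited whole-number counts by Ensembl identifier for 20 samples, made after read trimming and STAR alignment to GRCm38. The counter and its strand setting are not given in the sources used here. Reads without a gene stayed out of library sizes, and between 48.9% and 58.4% of the reads of a sample fell on genes. Symbols came from GENCODE M21. Low genes were removed with filterByExpr of edgeR (min.count 10, min.total.count 15, min.prop 0.7), and the rest scaled by TMM and tested with the quasi-likelihood F test of edgeR 4.0.16 in R 4.3.3 (Benjamini-Hochberg adjustment, threshold 0.05). The SE of a log2 fold change is its size divided by the root of F. Log2 CPM has a prior count of 2. Alternatives were DESeq2 1.42.0 (the tool the study used), relative log expression (RLE) size factors, no filter, robust estimation, 1 fit of all 20 samples, a replicate block, near-identical copies pooled (BLAST 2.17.0, at least 90% identity over 200 nt of the last 500 nt) and leaving out each mouse. In simulated counts 20% of 100 genes changed 2-fold and 63% of 100 changed 4-fold were called for FL1 against ctrl in estrus. These shares were 19% and 55% for diestrus against estrus in ctrl, and 0% and 32% for the interaction. Of the simulated calls 1.19%, 5.13% and 8.57% were false in the same order of comparisons. The 44 genes and all lists were chosen with earlier results of these data known. Values per mouse are given for the 2 of the 44 genes that edgeR called, for 20 genes named by a fixed list and for Tk1, which was added after its values were seen. The other genes are given by means, ranges and counts. The hormone and qPCR data of the study were not analysed here.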

Additional observations from a re-analysis of the deposited data

Results flagged for a closer look

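In 9 of 100 groups of 5 values checked (21 genes and 4 means, each in 4 groups), 1 mouse lay apart from the other 4 by Dixon's criterion (gap over range above 0.71), where chance gives about 1 in 20. Ctrl estrus replicate 3 was highest for Mcm7 (481 CPM, next mouse 352), Rrm2 (173 CPM, next 102.6) and Cdk1 (569.9 CPM, next 423). Without it the mean over the replication genes in ctrl mice was still 0.75 lower in diestrus on the log2 scale, but Mcm5 (adjusted p = 0.0559) and Mcm7 (adjusted p = 0.12) no longer passed. FL1 estrus replicate 2 was lowest for Plk1 (71.0 CPM, next 162), Cdk4 (141 CPM, next 191) and the mean over the mitosis genes (6.07 log2 CPM, next 6.81) and highest for Cdkn1a (183 CPM, next 58.6). FL1 diestrus replicate 1 was lowest for the mean over the mitosis genes (6.19 log2 CPM, next 6.88), and FL1 estrus replicate 5 was highest for Cdkn1c (11.1 CPM, next 4.24). No gene of the 44 had an interaction of line and stage that passed the test.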

How the results depend on the processing

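The differences in mean log2 CPM over the 44 genes and their roles moved by less than 1 SD of the mice in all 208 alternatives run (prior count 0.5, RLE size factors, a mean count of at least 10, which kept all 44 genes, and each mouse left out). For a mouse left out this was fixed in advance, because dropping 1 of 5 mice cannot move a group mean that far. The mean count changed nothing, so that only the prior count and the size factors could have exceeded 1 SD. With each mouse left out, the difference over the 44 genes was -0.34 to -0.17 in FL1 against ctrl in estrus and -0.51 to -0.40 between the stages of ctrl mice, and that over the replication genes -0.67 to -0.50 and -0.88 to -0.69. The sign changed in 7 alternatives, all of differences of at most 0.112 in size. The number of genes called in FL1 against ctrl in estrus went from 0 to 3 with DESeq2, 3 without the filter (Mcm5, Mki67 and Cdkn1a) and 1 in the fit of all 20 samples, and was 0 to 1 with each mouse left out. Between the stages of ctrl mice it went from 2 to 6 with DESeq2, to 3 without the filter, with robust estimation or in 1 fit, and was 0 to 3 with each mouse left out. Between the stages of FL1 mice it was 1 without the filter (Mki67). In the stage effect it was 4 with DESeq2, 1 without the filter, 1 with robust estimation and 0 to 4 with each mouse left out (4 without FL1 estrus replicate 2 and 4 without FL1 diestrus replicate 1). No other call count moved. The cause was not tested. For genes with an unadjusted p under 0.05 in the main fit, no log2 fold change changed sign under the alternatives. Genes closer to 0 were not followed singly, and some did change sign. Between the stages of FL1 mice 16 to 27 of the 44 genes lay below 0 with each mouse left out. With the replicate number as a block (replicate block) 2 genes were called between the stages of ctrl mice, Mcm5 (adjusted p = 0.0187) and Tk1 (0.0372), Mcm7 was not (0.0555), and 0 were called in every other fit. Correlations between same-numbered samples ran from -0.27 to 0.20. They were not set against those of differently numbered samples, so that they cannot settle whether the numbers pair the mice or mark a batch. Over all genes the block moved the calls from 100 to 58 between the lines in estrus and from 32 to 13 in diestrus. Near-identical copies of 12 of the 44 genes, pooled with them, changed no call. Over all genes, edgeR, DESeq2 and edgeR without the filter called 100, 425 and 373 genes between the lines in estrus, 32 and 118 between the lines in diestrus (0.439% of the genes tested without the filter, against 0.248%), 175, 526 and 348 between the stages of ctrl mice, 29, 265 and 299 between the stages of FL1 mice (65 in 1 fit of all samples and 178 without FL1 diestrus replicate 1), 181, 438 and 319 in the line effect, 473, 873 and 617 in the stage effect (728 without FL1 diestrus replicate 1) and 0, 1 and 6 in the interaction. Ccnd1, Cdkn1c and Ccne1 each had a mouse without a count, and the part of depth in this was not tested.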
